A study of Mus musculus with 16 samples.

Results

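Interferon-stimulated genes were followed in alveolar epithelial type II (AT2) cells, the surfactant-making cells of the lung, from mouse pups aged 3 days. The set held 35 genes given by name, and all 35 were found among the 20725 genes measured on 16 single-colour arrays. For the 11 of them with several array features, the feature with the highest mean over the 16 arrays stood for the gene. Of the members, 2 (Mx1 and Oas3) had a mean below 4.34, the median of all array values, and 13 lay between that value and 6. No filter on low values was used, so all 35 entered each count.

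The 4 groups were wild-type normoxia (n = 4), Fgf10+/- normoxia (n = 4), wild-type hyperoxia (n = 6) and Fgf10+/- hyperoxia (n = 2). Hyperoxia pups breathed 85% oxygen for their first days, from day 0 until day 3, and normoxia pups did not. The Fgf10+/- pups carried the heterozygous genotype of Fgf10, a fibroblast growth factor of the lung mesenchyme, and no label ties the allele to a cell type. The series text gives 4 samples per group, whereas the titles and genotype labels give the numbers above, which were followed. The labels do not say whether an array held RNA of 1 pup or of several, so p-values measure the spread between these samples only, which may be technical.

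Interferons are secreted cytokines that act on neighbouring cells. Type I and type III interferons activate a complex that includes STAT2 and IRF9 and binds the interferon-stimulated response element in target promoters, whereas interferon gamma acts through the gamma-activated site. The induced genes encode sensors of foreign nucleic acid, enzymes that block viral replication, chemokines, and regulators that amplify or end the response. Airway and alveolar epithelium are known sites of this response during viral infection.

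The promoters of the 3 members that passed the test in a comparison below and held the core of the interferon-stimulated response element are shown first. Type I and type III interferons act on target promoters through that element. The core was spelled as GAAA, any 2 bases and GAAA, and was searched on both strands from 250 bases before to 50 bases after the RefSeq start (GRCm38.p6). The bases before the start are printed 5′ to 3′ on the strand of the gene, and capitals mark the core. The Oas1a stretch is chr5:120907526-120907645 (minus strand), that of Cxcl10 is chr5:92348890-92349122 (minus strand) and that of Apol9a is chr15:77411081-77411200 (minus strand).
Oas1a: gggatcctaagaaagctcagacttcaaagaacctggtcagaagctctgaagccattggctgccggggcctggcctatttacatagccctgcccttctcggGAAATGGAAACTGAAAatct
Cxcl10: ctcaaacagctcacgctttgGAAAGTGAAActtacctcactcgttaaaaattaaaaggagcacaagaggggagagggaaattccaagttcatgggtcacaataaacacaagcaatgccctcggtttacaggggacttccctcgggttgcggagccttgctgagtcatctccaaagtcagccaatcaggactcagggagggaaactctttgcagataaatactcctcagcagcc
Apol9a: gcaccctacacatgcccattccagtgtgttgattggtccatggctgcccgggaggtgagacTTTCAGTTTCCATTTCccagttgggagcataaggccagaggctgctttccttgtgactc
In Oas1a 2 overlapping matches ended 5 bases before the start. In Apol9a 2 overlapping matches on the opposite strand ended 44 bases before it, and in Cxcl10 the single match began 213 bases before it. The promoter table held 26 of the 35 members, and 13 of these 26 (50%) had the core in at least 1 promoter, against 3.99% of all 27025 genes in the table and 3.44% of all 32851 promoters. The gamma-activated site, spelled TTCNNNGAA, was found in 5 of the 26 members (19.2%) and in 9.55% of all genes, and 2 members (Oas1a and Bst2) held both. Matches of the 2 patterns may overlap, and a match describes the letters of the window only. Of the other called members, Oasl2 and Il18bp had no match of the first pattern in this window, while Rtp4 and Zbp1 were not in the table.

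Values are log2 intensities that the authors had normalized to a shared distribution, and a change is a difference of group means on that scale. Sftpc, the surfactant protein C gene, and Sftpb were in the top 1% of genes on every array (lowest percentiles 99.99 and 99.03). They were the highest of 10 AT2 markers. The lowest percentiles of the others ran from 97.47 for Abca3 down to 76.82 for Nkx2-1 and 61.10 for Lpcat1. The AT2 marker mean was 10.4 to 11.8 over the 16 arrays. In Fgf10+/- normoxia it was 10.9 to 11.7, below the mean of club cell markers (12.2 to 13.3). The purity of the samples was not tested. Arrays correlated with each other at 0.892 to 0.957, so no pair held the same values. The Y-linked gene Eif2s3y split the arrays, at 7.23 to 8.62 on 7 of them and 3.22 to 4.50 on 9. Both Fgf10+/- hyperoxia arrays were low for it, whereas Fgf10+/- normoxia held 2 high and 2 low arrays.

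The mean of the 35 interferon-stimulated genes was highest in the 4 Fgf10+/- normoxia samples and lay lower in the other 3 groups. It was 6.88, 6.84, 7.21 and 7.09 in Fgf10+/- normoxia replicates 1 to 4. It was 6.33, 6.32, 6.43 and 6.36 in wild-type normoxia, and 6.10 and 6.20 in Fgf10+/- hyperoxia. In wild-type hyperoxia it ran from 6.19 to 6.31 with a median of 6.24. Thus the lowest Fgf10+/- normoxia array lay above the highest of the 12 other arrays. Group means were 6.36 ± 0.05 (SD, n = 4) for wild-type normoxia, 6.25 ± 0.05 (SD, n = 6) for wild-type hyperoxia, 7.0 ± 0.18 (SD, n = 4) for Fgf10+/- normoxia and 6.15 ± 0.07 (SD, n = 2) for Fgf10+/- hyperoxia. No test is given for this mean, since the members were chosen with earlier results of these data known.

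**Figure D1:**
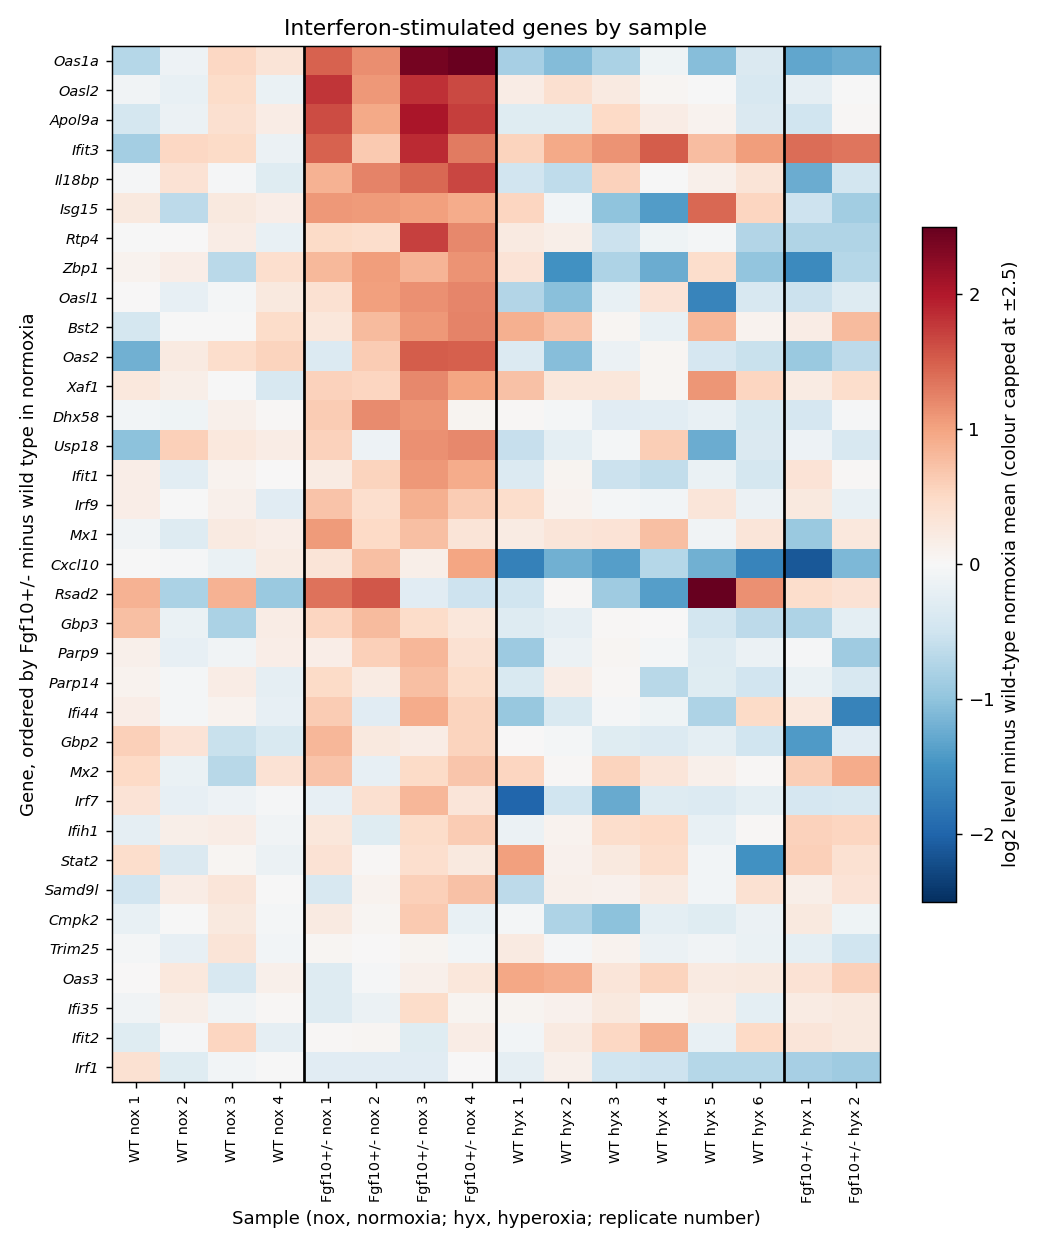
Heat map of the 35 interferon-stimulated genes (rows, ordered by the difference between genotypes in normoxia) in the 16 samples (columns, by group), coloured by log2 level minus the wild-type normoxia mean of the gene, with the colour capped at ±2.5. Most rows are red in the 4 Fgf10+/- normoxia columns, from Oas1a at the top (a difference of 1.88) to Irf1 at the bottom (-0.21).

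Of the 35 members, 27 had their highest group mean in Fgf10+/- normoxia, against 28.5% of all genes. The other 8 were Ifit2, Ifit3, Irf1, Oas3, Mx2, Stat2, Ifih1 and Ifi35. For 8 members every Fgf10+/- normoxia array lay above all 12 others (0.318% of all genes): Oasl1, Oasl2, Oas1a, Rtp4, Parp14, Zbp1, Apol9a and Il18bp. No member had all 4 of these arrays below the others (0.478% of all genes).

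In normoxia, Fgf10+/- AT2 samples had higher levels of many interferon-stimulated genes than wild-type samples, and Oasl2 was the member that rose past the threshold. Oasl2, an oligoadenylate synthetase-like protein with antiviral activity, was 3.01-fold higher. Its mean was 8.40 ± 0.34 (SD, n = 4) for Fgf10+/- and 6.81 ± 0.30 (SD, n = 4) for wild type. The change was positive in 33 of 35 members, with a median of 0.55, while the median of all genes was -0.01. Irf1 (-0.21) and Ifit2 (-0.00) were the exceptions. The 4 Fgf10+/- arrays lay above all 4 wild-type arrays for 14 members, a state found in 1.42% of all genes, and below them for none (2.04% of all genes).

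The test was limma with Benjamini-Hochberg adjustment over the 20725 genes. By it, 1 member was called higher and 0 lower, where 0.00965% of all genes were called higher (2 genes) and 0% lower. At an unadjusted p under 0.05, 16 members were higher and 0 lower, against 2.63% and 3.4% of all genes. The Oasl2 call was narrow (adjusted p = 0.0421). Leaving out each sample in turn ended the call in 11 of 16 fits, with a change of 1.51 to 1.76 over the 16 and a limma adjusted p of up to 0.266. The Oasl2 call also ended in a fit of only the 2 groups (change 1.59, limma adjusted p = 0.382). It ended too with the club cell marker mean as a covariate (1.58, limma adjusted p = 0.0592). Without the 4 arrays highest in thymocyte markers, which leaves 1 Fgf10+/- normoxia sample, the Oasl2 change was 1.77.

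Among the oligoadenylate synthetase family and its like proteins, the members differed. Oasl2 was 8.60, 7.90, 8.64 and 8.47 in Fgf10+/- normoxia and 6.72, 6.62, 7.26 and 6.65 in wild-type normoxia. Oas1a, an enzyme of that family, was 7.83, 7.52, 8.75 and 8.83 against 5.63, 6.22, 6.88 and 6.68. Oasl1, which is known to restrain Irf7 translation, was 6.40, 7.04, 7.16 and 7.23 against 6.01, 5.81, 5.97 and 6.25. In these 3 genes no Fgf10+/- array overlapped the wild-type arrays, and changes were 1.59 for Oasl2 (SE 0.22, limma adjusted p = 0.0421), 1.88 for Oas1a (SE 0.33, limma adjusted p = 0.0952) and 0.94 for Oasl1 (limma adjusted p = 0.668). A second, dimmer Oas1a feature changed by 0.53, and the near-identical copies Oas1a and Oas1g may not be told apart by a probe. Oas2 changed by 0.83 with overlapping groups, and Oas3, a dim feature, by 0.02.

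The other effectors of large size were Apol9a, Ifit3 and Il18bp. Apol9a, an apolipoprotein L family gene, was 6.96, 6.27, 7.38 and 7.06 in Fgf10+/- normoxia and 4.88, 5.18, 5.73 and 5.52 in wild type, a change of 1.59 (SE 0.27, limma adjusted p = 0.0952). Apol9a has a near-identical neighbour, Apol9b, whose feature changed by 1.79, so the 2 genes cannot be told apart here, and a second, dim Apol9a feature changed by 0.49. Il18bp, the secreted inhibitor of interleukin 18, was 5.99, 6.38, 6.56 and 6.81 against 5.10, 5.49, 5.10 and 4.83, a change of 1.30 (SE 0.28, limma adjusted p = 0.227). Ifit3, a member of the tetratricopeptide repeat family that binds viral RNA complexes, was 7.24, 6.42, 7.64 and 7.07 against 4.92, 6.28, 6.25 and 5.61, a change of 1.33 (SE 0.31, limma adjusted p = 0.349). Neither gene overlapped between the groups, and Ifit3 has a near-identical copy, Ifit3b. In the same family Ifit1 changed by 0.69 without overlap, whereas Ifit2 lay at 4.93 in both group means.

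Sensors and ubiquitin-like genes followed with smaller changes, none past the threshold. Zbp1, a sensor of Z-form nucleic acid that can trigger necroptosis, was 5.73, 5.96, 5.78 and 6.05 in Fgf10+/- normoxia and 5.01, 5.09, 4.26 and 5.34 in wild type, a change of 0.96 (SE 0.40, limma adjusted p = 0.771). Dhx58, the LGP2 helicase, changed by 0.74 and Ifih1, the MDA5 sensor, by 0.27. Isg15, the ubiquitin-like modifier, was 10.01, 9.99, 9.96 and 9.84 against 9.16, 8.27, 9.16 and 9.10, a change of 1.03 (SE 0.46, limma adjusted p = 0.814). The groups did not overlap for Isg15 and Zbp1. Usp18, the protease that removes Isg15 and damps receptor signalling, changed by 0.69 with overlap.

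Rtp4, a receptor transporter protein induced by interferon, was 7.79, 7.75, 9.02 and 8.52 in Fgf10+/- normoxia and 7.30, 7.33, 7.49 and 7.13 in wild type, a change of 0.96 (SE 0.28, limma adjusted p = 0.519). Its 2 highest arrays were Fgf10+/- normoxia replicates 3 and 4. Xaf1, a pro-apoptotic partner of XIAP, changed by 0.82 and Bst2 (tetherin), which holds budding virions at the membrane, by 0.85. Of the transcription factors, Irf9 changed by 0.66 without overlap, Irf7 by 0.34, Stat2 by 0.26 and Irf1 by -0.21. Of the GTPases, Mx1 changed by 0.66, Gbp3 by 0.51, Gbp2 by 0.46 and Mx2 by 0.42, and of the ADP-ribosyltransferases Parp9 by 0.50 and Parp14 by 0.47. The chemokine Cxcl10 changed by 0.55, Rsad2 (viperin) by 0.53, Ifi44 by 0.46, Samd9l by 0.25, Cmpk2 by 0.19, Trim25 by 0.02 and Ifi35 by 0.01.

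**Figure D2:**
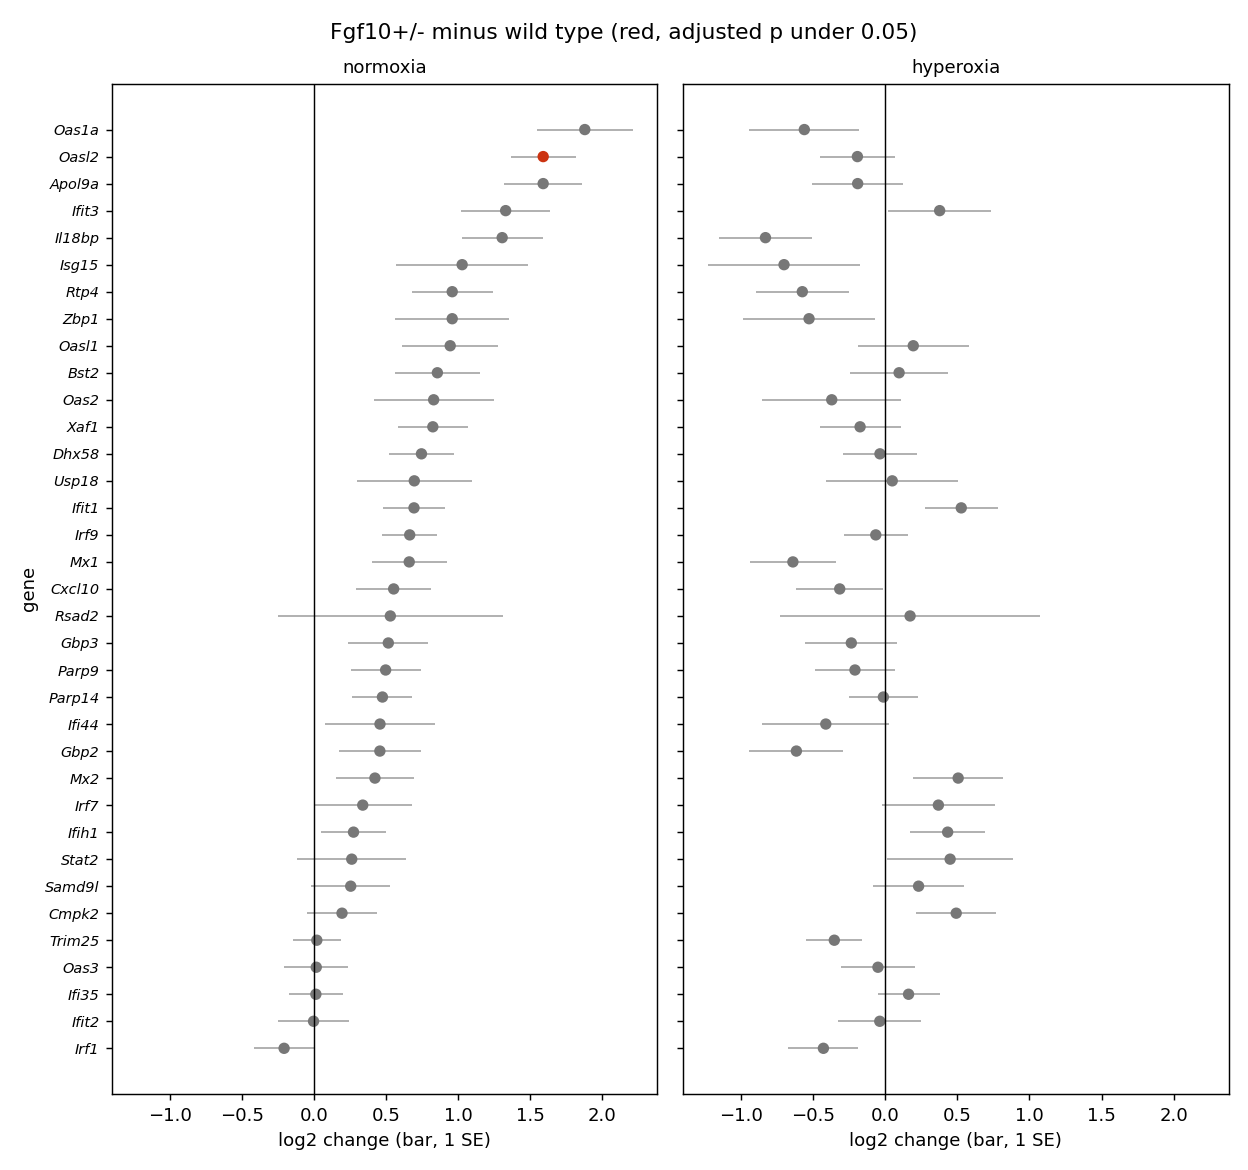
Log2 change of each interferon-stimulated gene for Fgf10+/- minus wild type, in normoxia (left) and hyperoxia (right), with bars of 1 SE and red points for an adjusted p under 0.05. In normoxia 33 of 35 points lie right of 0 and Oasl2 is red, and in hyperoxia the points run from -0.83 (Il18bp) to 0.53 (Ifit1) with none red.

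In Fgf10+/- samples, interferon-stimulated genes were lower in hyperoxia than in normoxia, and 7 members fell past the threshold: Oas1a, Cxcl10, Il18bp, Oasl2, Apol9a, Rtp4 and Zbp1. Oas1a showed the largest change, 8.83-fold lower, with means of 5.09 ± 0.05 (SD, n = 2) after hyperoxia and 8.23 ± 0.66 (SD, n = 4) after normoxia. Cxcl10, a chemokine for T and NK cells, was 4.51-fold lower, at 7.66 ± 0.70 (n = 2) against 9.84 ± 0.38 (n = 4). The change was negative in 28 of 35 members, with a median of -0.76, while the median of all genes was -0.04. This comparison and that of the genotypes in normoxia share the 4 Fgf10+/- normoxia samples, so they are not independent.

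By limma with Benjamini-Hochberg adjustment 7 members fell and 0 rose, where 1.26% of all genes were called lower and 1.18% higher. At an unadjusted p under 0.05, 19 members were lower and 0 higher, against 9.36% and 7.35% of all genes. Both hyperoxia arrays lay below all 4 normoxia arrays for 21 members (13.6% of all genes) and above them for 2, Ifit2 and Oas3 (12.4% of all genes). The count of 7 rested on the samples kept: it was 1 (Oas1a) without Fgf10+/- hyperoxia replicate 1, a fit that takes the lone sample left to vary as other groups do, and 4 when the features of a gene were averaged. It was also 1 (Oas1a) without the 4 arrays highest in thymocyte markers, which leaves 1 Fgf10+/- normoxia sample under the same assumption.

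For all 7 called members the Fgf10+/- hyperoxia mean was the lowest of the 4 groups. Oas1a was 5.05 and 5.12 in Fgf10+/- hyperoxia against 7.52 to 8.83 in Fgf10+/- normoxia, a change of -3.14 (SE 0.41, limma adjusted p = 0.00214). The Oas1a call was kept whichever of the 16 samples was left out. A second Oas1a feature changed by -1.55. Oasl2 was 6.59 and 6.80 against 7.90 to 8.64, a change of -1.71 (SE 0.27, limma adjusted p = 0.00513). Of the rest of the family, Oas2 changed by -1.62 (limma adjusted p = 0.113) and Oasl1 by -1.37 (limma adjusted p = 0.091), both without overlap, while Oas3 changed by 0.46.

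The 2 secreted products among the called members were Cxcl10 and Il18bp. Cxcl10 was 7.17 and 8.16 in Fgf10+/- hyperoxia and 9.61, 10.03, 9.43 and 10.26 in normoxia, a change of -2.17 (SE 0.32, limma adjusted p = 0.00328). Its second feature, with a mean of 4.01, changed by 0.06. With the features averaged Cxcl10 changed by -1.06. Its call was lost in 2 of the 13 alternatives that did not leave out single samples. Il18bp was 3.89 and 4.67 against 5.99 to 6.81, a change of -2.15 (SE 0.34, limma adjusted p = 0.00473), and replicate 1 lay below the median of all array values. Neither gene passed without Fgf10+/- hyperoxia replicate 1, at -1.68 and -1.76 (limma adjusted p = 0.0673 and 0.085).

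Apol9a, Rtp4 and Zbp1 were called with less margin. Apol9a was 4.84 and 5.37 in Fgf10+/- hyperoxia, a change of -1.81 (SE 0.33, limma adjusted p = 0.0111), while its dim second feature changed by -0.66. With the features averaged Apol9a changed by -1.24. Its call was lost in 4 of the 13 alternatives that did not leave out single samples. Rtp4 was 6.56 on both arrays, a change of -1.71 (SE 0.34, limma adjusted p = 0.0174), and did not pass without either hyperoxia sample. Zbp1 was 3.33 and 4.22, a change of -2.11 (SE 0.48, limma adjusted p = 0.0314). Both Zbp1 values lay below the median of all array values. Zbp1 lost its call in 5 of 16 fits leaving out each sample in turn, with a limma adjusted p of up to 0.277, and did not pass with the mean of its 2 features (-1.36, limma adjusted p = 0.0604).

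Members that did not pass in this comparison spanned -1.72 to 0.46. Isg15 was 8.41 and 8.05 in Fgf10+/- hyperoxia against 9.84 to 10.01 in normoxia, a change of -1.72 (SE 0.56, limma adjusted p = 0.125). The groups did not overlap. The interferon-inducible GTPases changed by -1.31 for Gbp2, -1.02 for Gbp3, -0.99 for Mx1 and 0.35 for Mx2. Dhx58, Parp9 and Parp14 changed by -0.97, -0.96 and -0.76 without overlap. Transcription factors changed by -0.74 for Irf7, -0.65 for Irf1, -0.63 for Irf9 and 0.23 for Stat2. The 7 members with a positive change were Ifit2, Ifit3, Oas3, Mx2, Stat2, Ifih1 and Ifi35. Ifit3 differed by 0.04 between these groups, at 7.16 and 7.11 against 6.42 to 7.64.

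**Figure D3:**
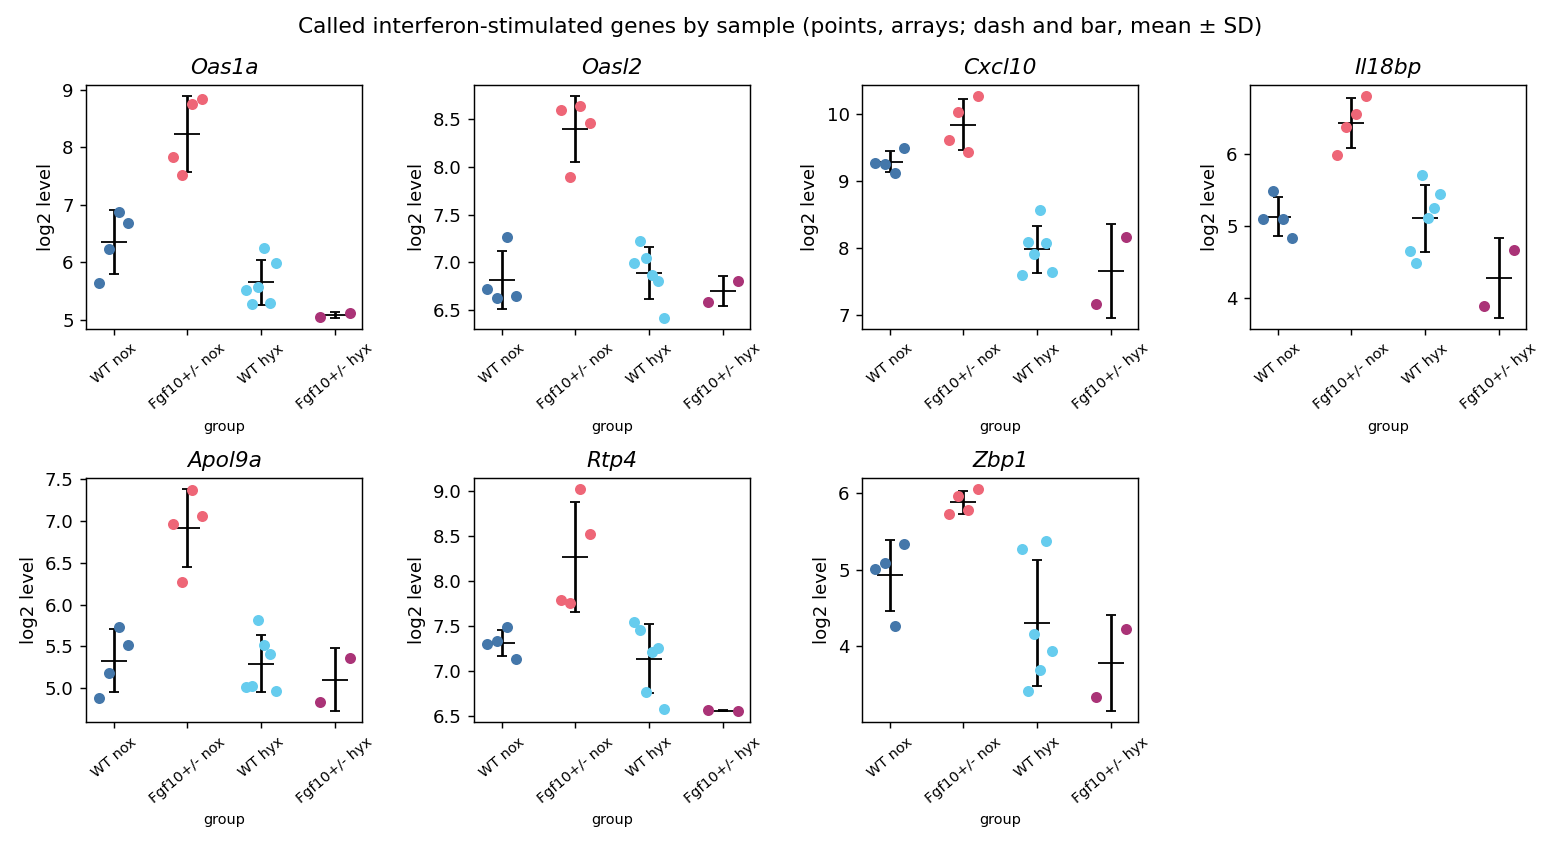
Log2 levels of the 7 interferon-stimulated genes that passed the test in at least 1 comparison, by sample (points) in the 4 groups, with the group mean and SD. In all but Cxcl10 the 4 Fgf10+/- normoxia points lie above every other point, and in Cxcl10 the 8 hyperoxia points lie below the 8 normoxia points, at 7.17 to 8.56 against 9.11 to 10.26.

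In wild-type samples, Cxcl10 fell with hyperoxia and no other member passed the test. Cxcl10 was 9.27, 9.26, 9.11 and 9.50 in the normoxia arrays, while the 6 hyperoxia arrays ran from 7.59 to 8.56 with a median of 8.0. It was 2.47-fold lower (-1.30, SE 0.24, limma adjusted p = 0.00549), with no overlap, and its dim second feature changed by -1.15. The call was kept whichever of the 16 samples was left out (limma adjusted p at most 0.0275). By limma 1 member fell and 0 rose, where 1.36% of all genes were called lower and 1.77% higher. At an unadjusted p under 0.05, 4 members were lower and 3 higher, against 10.8% and 7.41% of all genes.

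Over the 35 members in wild type the median change was -0.03, with 20 negative and 15 positive, and the median of all genes was -0.08. Centring each array on the median of the named genes moved the median of all genes from -0.08 to 0.03 and that of the members to 0.08, so the list had no direction that held under both scalings. Ifit3 changed by 0.99 (SE 0.28, limma adjusted p = 0.067), with 6.32 to 7.27 in hyperoxia above 4.92 to 6.28 in normoxia, and passed under 4 of the alternatives. Irf7, the amplifier of type I interferon production, changed by -0.78 (limma adjusted p = 0.192) without overlap. Its hyperoxia arrays ran from 3.45 to 5.20 and its normoxia arrays from 5.24 to 5.78. Non-overlap held for 2 members below (4.02% of all genes) and 1 above (3.13% of all genes).

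The 6 other genes called in Fgf10+/- did not pass in wild type. In wild-type hyperoxia Oas1a ran from 5.28 to 6.25 with a median of 5.55, and Oasl2 from 6.42 to 7.22 with a median of 6.93. Il18bp ran from 4.49 to 5.71 with a median of 5.19, and Apol9a from 4.97 to 5.82 with a median of 5.22. Rtp4 ran from 6.57 to 7.55 with a median of 7.23, and Zbp1 from 3.41 to 5.37 with a median of 4.05. All 6 genes overlapped wild-type normoxia, with changes of 0.08 for Oasl2, -0.03 for Apol9a, -0.02 for Il18bp, -0.18 for Rtp4, -0.62 for Zbp1 and -0.70 for Oas1a. Isg15 varied widely among wild-type hyperoxia arrays, from 7.53 to 10.35 with a median of 9.15, and its change was 0.00 (SE 0.42). Rsad2, the radical SAM enzyme viperin, varied likewise, from 5.09 to 9.43, with its highest value in replicate 5, where Isg15 was also highest. Of the brightest members, Trim25, a ubiquitin ligase that activates RIG-I, was 10.47, 10.32, 10.85 and 10.44 in normoxia and 10.35 to 10.73 in hyperoxia, a change of -0.02. Its second feature, also bright, changed by -0.94, so the Trim25 features disagree. Irf1, the factor induced by interferon gamma, was 10.82, 10.14, 10.37 and 10.43 in normoxia and 9.72 to 10.56 with a median of 9.93 in hyperoxia, a change of -0.43 (limma adjusted p = 0.246).

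**Figure D4:**
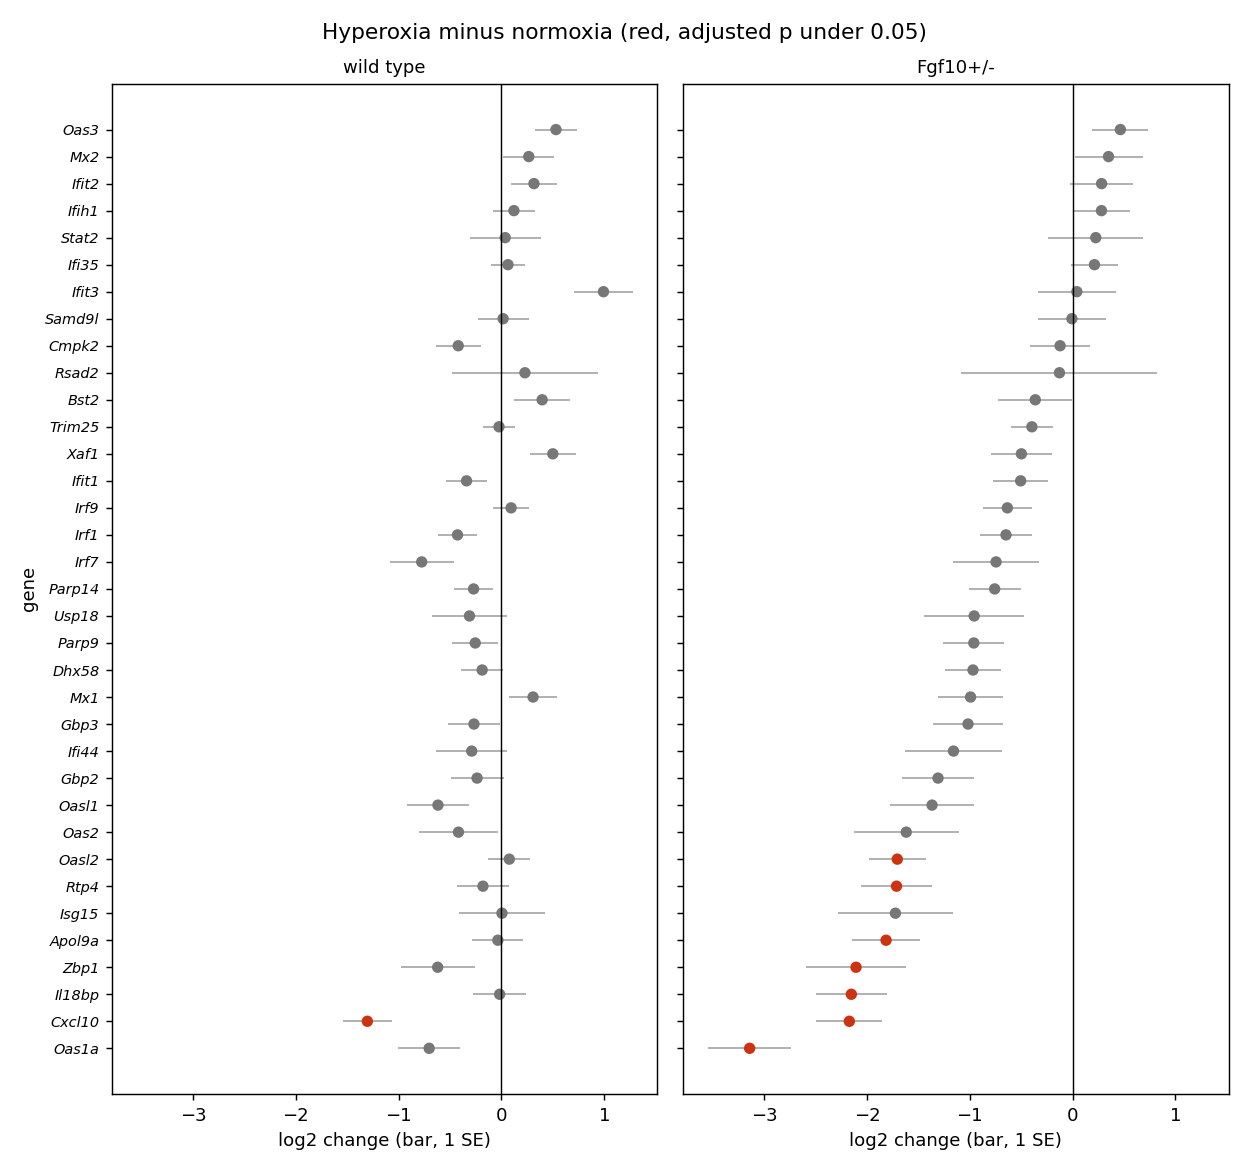
Log2 change of each interferon-stimulated gene for hyperoxia minus normoxia in wild type (left) and Fgf10+/- (right), with bars of 1 SE and red points for an adjusted p under 0.05. In wild type Cxcl10 alone is red and the points lie on both sides of 0, and in Fgf10+/- 28 of 35 points lie left of 0 and 7 are red, down to -3.14 for Oas1a.

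In hyperoxia no interferon-stimulated gene passed the test between genotypes. By limma 0 members were called in either direction, as were 0% of all genes. At an unadjusted p under 0.05, 2 members (Il18bp and Mx1) were lower and 0 higher, against 2.77% and 1.6% of all genes. The median change was -0.07, from -0.83 for Il18bp (SE 0.32) to 0.53 for Ifit1 (SE 0.25). The 2 Fgf10+/- arrays lay below all 6 wild-type arrays for Irf1, Oas1a, Rtp4 and Trim25 (3.31% of all genes) and above them for Mx2 and Ifih1 (3.67% of all genes).

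The difference between the hyperoxia changes of the genotypes was tested as an interaction, and no member passed. The interaction was negative in 29 of 35 members, with a median of -0.75 against 0.04 for all genes. By limma 0 members were called, where 0.00965% of all genes were called lower (2 genes) and 0% higher. At an unadjusted p under 0.05, 13 members were lower and 0 higher, against 2.35% and 1.76% of all genes. The lowest adjusted p among the members was 0.551, for Oas1a (-2.44, SE 0.51), Il18bp (-2.14, SE 0.43) and Oasl2 (-1.78, SE 0.34). So the larger fall in Fgf10+/- is not shown to differ from wild type for any single gene at this number of samples.

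Interferon genes themselves were dim. Of 9 ligands measured, 8 had a mean below the median of all array values, and 0 were called by limma in any of the 5 comparisons. In normoxia 1 was higher and 1 lower in Fgf10+/- at an unadjusted p under 0.05. Ifng and Ifna5 were the brightest, with means of 5.24 and 4.27 over the 16 arrays. Of 15 receptor and signalling genes measured, 0 were called by limma in any comparison, and in normoxia 5 had a positive and 10 a negative change between genotypes, with a median of -0.06 and 0 higher and 2 lower at an unadjusted p under 0.05. Among these 15 Socs3, a feedback inhibitor of cytokine receptors, changed by -0.49, the receptor chain Ifngr1 by -0.02, Ifnar1 by -0.04 and Ifnar2 by 0.18. Irf8, a factor of myeloid cells, changed by -1.38 (limma adjusted p = 0.614).

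Of 16 genes of nucleic acid sensing, Trex1, the cytosolic DNA exonuclease, fell with hyperoxia in Fgf10+/- (-0.98, SE 0.22, limma adjusted p = 0.0263), at 7.96 ± 0.09 (n = 2) against 8.94 ± 0.19 (n = 4). It was the only gene of that list called in any comparison. A wider list held 64 other interferon-induced genes. Between genotypes in normoxia its median change was 0.21, with 42 positive (65.6%, against 47.9% of all genes) and 0 called by limma. At an unadjusted p under 0.05, 12 of the 64 were higher and 2 lower, against 2.63% and 3.4% of all genes. With hyperoxia in Fgf10+/- the list's median was -0.47, against -0.04 for all genes. By limma 7 of its genes fell and 0 rose (1.26% and 1.18% of all genes): Tgtp2, Apol9b, Ifi47, Ifitm1, Ifi27, Psmb9 and Psmb8. Apol9b cannot be told apart from the called member Apol9a here, so this count and that of the members may share a signal.

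Tgtp2, a GTPase of the immunity-related family with a near-identical neighbour, changed by -2.79 (SE 0.38, limma adjusted p = 0.00233). Its means were 6.77 ± 0.74 (SD, n = 2) after hyperoxia and 9.56 ± 0.40 (SD, n = 4) after normoxia in Fgf10+/-, beside 7.50 ± 0.49 (SD, n = 6) and 8.04 ± 0.30 (SD, n = 4) in wild type. Apol9b changed by -2.58 (limma adjusted p = 0.0073), the GTPase Ifi47 by -1.31 (limma adjusted p = 0.0225) and the membrane protein Ifitm1, which blocks viral fusion, by -1.21 (limma adjusted p = 0.0253). In wild type 2 genes of this list rose and 0 fell with hyperoxia (1.77% and 1.36% of all genes), with a list median of -0.20 against -0.08. They were the chemokine Cxcl11 (1.01, limma adjusted p = 0.00633, second feature 2.01) and Gbp6 (3.11, limma adjusted p = 0.00864), whose 2 other features, both dim, changed by -0.30 and -0.63.

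**Figure D5:**
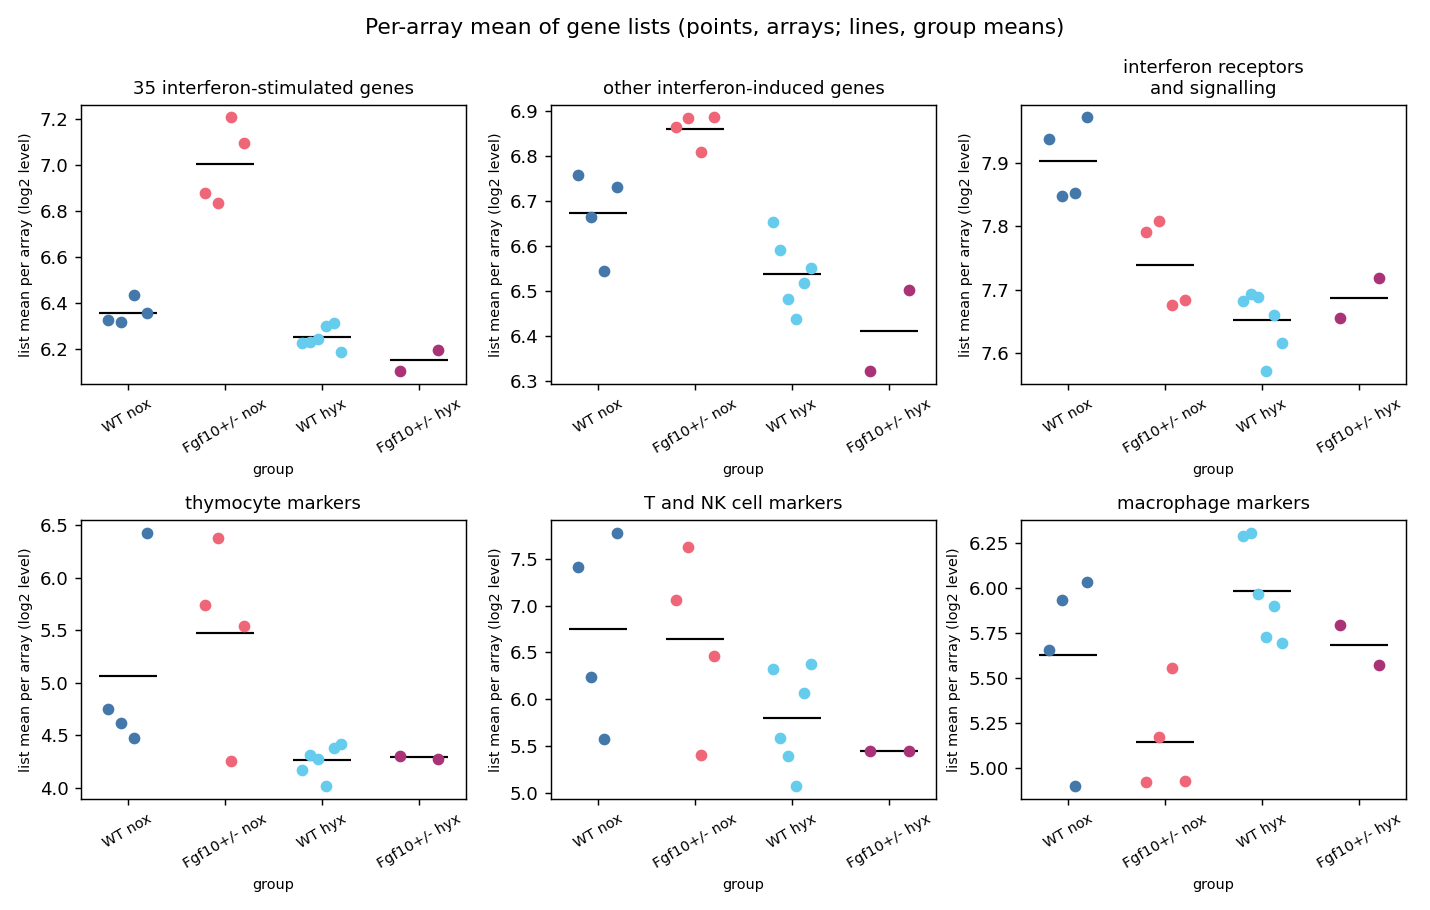
Mean log2 level per array (points) of 6 gene lists in the 4 groups, with lines at the group means and a separate vertical scale in each panel. The interferon-stimulated genes are highest in Fgf10+/- normoxia (6.84 to 7.21), while thymocyte markers there run from 4.25 to 6.38 and macrophage markers from 4.92 to 5.56.

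Thymocyte markers varied within both normoxia groups and were lower in hyperoxia than in most normoxia arrays. In bulk samples, fewer cells of a type and less RNA per cell cannot be told apart. The mean of 10 thymocyte markers was 5.74, 6.38, 4.25 and 5.54 in Fgf10+/- normoxia replicates 1 to 4. It was 4.31 and 4.27 in Fgf10+/- hyperoxia and ran from 4.01 to 4.42 in wild-type hyperoxia. Fgf10+/- normoxia replicate 3, the lowest of its group, had the highest mean of the interferon-stimulated genes (7.21). In wild-type normoxia the thymocyte mean was 4.75, 4.62, 4.47 and 6.43, so 3 of these 4 arrays lay below 3 of the 4 Fgf10+/- normoxia arrays, and the group means were 5.07 ± 0.91 (SD, n = 4) and 5.48 ± 0.89 (SD, n = 4). Wild-type normoxia replicate 4, the highest of all, had a mean of the interferon-stimulated genes of 6.36. With the thymocyte mean as a covariate 1 member was called between genotypes in normoxia and 6 with hyperoxia in Fgf10+/-, all 6 among the 7. Leaving out the 4 arrays highest in these markers removed Fgf10+/- normoxia replicates 1, 2 and 4, so that group rested on replicate 3 alone. The median change was then 0.83 between genotypes in normoxia and -1.03 with hyperoxia in Fgf10+/-. These medians rest on the array with the highest mean of the interferon-stimulated genes. The part of thymocytes in these results was not tested beyond these fits.

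Macrophage markers (8 genes) averaged 4.92 to 5.56 in Fgf10+/- normoxia and 4.90 to 6.03 in wild-type normoxia. Dendritic cell markers averaged 4.22 to 4.90 against 4.59 to 5.30, and plasmacytoid dendritic cell markers 6.68 to 7.66 against 6.92 to 7.41. B cell markers averaged 4.30 to 4.70 against 4.66 to 5.93, and neutrophil markers 7.41 to 7.61 against 7.42 to 8.38. T and NK cell markers averaged 5.40 to 7.63 against 5.58 to 7.78. None of these 6 lists was higher in every Fgf10+/- normoxia array than in wild-type normoxia. In Fgf10+/- hyperoxia macrophage markers (5.57 and 5.80), B cell markers (4.92 and 5.21) and neutrophil markers (7.87 and 7.99) lay above Fgf10+/- normoxia. T and NK cell markers (5.44 and 5.45) lay within its range, with a group mean of 5.44 against 6.64 in Fgf10+/- normoxia. Dendritic cell markers (4.60 and 4.85) and plasmacytoid dendritic cell markers (6.97 and 7.13) also lay within its range. The part of all these cells in the hyperoxia result was not tested.

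Markers of other lung cells did move with groups. Endothelial markers were 6.25 to 6.80 in Fgf10+/- normoxia, below wild-type normoxia (7.05 to 7.47) and Fgf10+/- hyperoxia (6.85 and 8.20). Club cell markers were 12.2 to 13.3 in Fgf10+/- normoxia, above Fgf10+/- hyperoxia (9.44 and 11.3) and overlapping wild-type normoxia (10.5 to 13.1). Smooth muscle and pericyte markers were 6.11 to 7.10 in Fgf10+/- normoxia and 7.74 and 7.79 in Fgf10+/- hyperoxia. In wild-type normoxia they overlapped Fgf10+/- normoxia, at 9.41 in replicate 1 and 6.40 to 6.90 in the other arrays. With the club cell mean as a covariate 7 members were called with hyperoxia in Fgf10+/-, 6 of them among the 7 above, and the median change between genotypes in normoxia was 0.54. With Eif2s3y high or low as a covariate 7 members were called with hyperoxia in Fgf10+/-, the same 7 genes, and 1 between genotypes in normoxia. AT1 cell markers (10.01 to 10.86 in Fgf10+/- normoxia), fibroblast markers (8.05 to 8.76), ciliated cell markers (8.31 to 9.43) and erythroid markers (7.16 to 8.74) overlapped both wild-type normoxia and Fgf10+/- hyperoxia. The part of endothelial and smooth muscle cells in these results was not tested.

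Outside all lists, the 5 genes most like the mean of the members over the 16 arrays were Lrg1, H2-Q8, Saa1, Cfb and Tapbp, with Pearson r of 0.93 to 0.87. The arrays share the 4 groups, and the correlation of deviations from group means was 0.26 to 0.47 for these genes. Lrg1, Saa1 and Cfb are acute-phase genes, and H2-Q8 and Tapbp belong to MHC class I presentation.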

How the data were processed

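RNA of AT2 cells was labelled with Cy3 alone, with Agilent named as a supplier per the labels' protocols, and measured on 16 single-colour arrays. The deposited values were log2 intensities as judged from their range (-0.40 to 15.98), already normalized by the authors, since arrays ranked by value differed by no more than 0.20 at any rank. No label used here names the scanner software, background correction or log base, and no detection flags were used. Of 62976 features, 65 with a missing value were left out. Symbols were updated through RefSeq tables (GRCm38.p6), giving 31439 named features of 20725 genes.

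Means of the 4 groups came from 1 model over the 16 samples in limma 3.58.1 (R 4.3.3, lmFit and eBayes), with Benjamini-Hochberg adjustment over all genes and a threshold of 0.05. Alternatives changed the scaling, the feature per gene, dim values, the samples, the variance model, weights and covariates. The precision is limited by the number of arrays. The fit was tested on simulated data. The members, gene lists and named genes were chosen with earlier results of these data known. Values in every sample were given for members called in any comparison and the 3 brightest, and for pathway lists up to 4 called genes in order of p were described, with the 2 brightest where none was called. A few further genes were named after their values were seen. Replicate numbers are not known to pair samples. Of 18 same-numbered pairs, 4 had deviations correlated over 0.1, and the highest correlation was 0.24.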

Additional observations from a re-analysis of the deposited data

Results flagged for a closer look

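In 3 of 108 groups of 4 or 6 samples checked (each member and their mean), 1 sample lay far from the others by Dixon's test, which chance gives in about 1 of 20 groups. Isg15 was 8.27 in wild-type normoxia replicate 2, while the other 3 samples were 9.10 to 9.16. Irf1 was 10.45 in Fgf10+/- normoxia replicate 4 against 10.15 to 10.17 in the others. Oasl2 was 7.26 in wild-type normoxia replicate 3 against 6.62 to 6.72.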

How the results depend on the processing

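With hyperoxia in Fgf10+/-, where 7 members were called, the count was 4 with the mean of all features. It was at most 10 over the 13 alternatives that did not leave out single samples, and at most 8 with each sample left out. The lowest counts came from fits that left 1 sample in a group, as given above. In wild type, where 1 was called, it was 2 with arrays centred on named genes, with dim genes left out, with an intensity trend and with the club cell covariate, Ifit3 being the added gene, and 1 with each sample left out. Between genotypes in normoxia, where 1 was called, it was 3 with dim genes left out, with an intensity trend and with array weights, 0 in a fit of only the 2 groups, without the 4 thymocyte-high arrays and with the club cell covariate, and 0 to 3 with each sample left out. With the replicate block, which is not known to pair samples, the counts were 5 with hyperoxia in Fgf10+/- and 1 with hyperoxia in wild type. Between genotypes in normoxia the count was 0. Each sample was also compared with the samples of another group, and in 9 of 24 such checks its own number correlated best. A sample could enter more than 1 check. Genotype in hyperoxia and the interaction gave 0 calls under every alternative run, and no called member changed sign under any. Centring on all features changed no count. The fit of only the compared groups does not apply to the interaction. Centring on named genes, leaving out the thymocyte-high arrays, and the Eif2s3y and club cell covariates were chosen after seeing the data. Signal close to the median of all values limits what can be said of Mx1, Oas2 and Oas3. The same limit holds for Dhx58 and Ifit1, with means of 4.45 and 4.61 over the 16 arrays.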
